A study of Mus musculus with 12 samples.

Results

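Loss of Baf60a was set against its presence in mouse bone marrow-derived macrophages (BMDMs) profiled by Omni-ATAC, a form of ATAC-seq in which a transposase inserts sequencing adapters into accessible DNA. The comparison used the 4 Omni-ATAC libraries of the 12 ATAC-seq libraries in the series, chosen by their titles: 1 of untreated KO cells, 1 of KO cells kept for 48 h in oxidised LDL (oxLDL) at 50 µg/ml, 1 of untreated WT cells and 1 of WT cells given the same oxLDL. KO and WT were compared within each treatment, which gives 2 pairs, and the rest of the series served only to follow single results. The labels of these 4 libraries call the cells primary BMDMs and name the genotype as KO or WT. They do not give the targeted allele, any Cre driver, the ApoE status, the age or sex of the mice or whether animals were pooled, so each library is 1 preparation of unknown origin. The other 8 libraries carry ApoE KO in both genotypes, with 2 libraries per genotype and treatment. There KO is Baf60af/f with Lyz2 Cre+ and WT is Baf60af/f with Lyz2 Cre-, so that Cre is driven from a gene of myeloid cells. They are called ApoE-null below.

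Baf60a is the product of Smarcd1 and one of the alternative BAF60 subunits of SWI/SNF complexes, which use ATP to slide or evict nucleosomes. The related subunits Baf60b and Baf60c come from Smarcd2 and Smarcd3, and a complex carries 1 member of this family. BAF60 subunits link the remodeller to transcription factors, including nuclear receptors that govern lipid and mitochondrial genes. Macrophages keep their enhancers open through factors such as PU.1, C/EBP and AP-1, and they become foam cells when they take up modified LDL through scavenger receptors. The comparison addresses which accessible sites differ when Baf60a is missing, with and without a load of oxLDL.

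Each deposited list holds the intervals in which a peak caller found more transposase insertions than its background, with a whole-number score per peak that is the authors' own. Reads were not part of these files, so the sequencing depth is unknown, and its effect on the length of a list and that of more open chromatin cannot be told apart. The 4 lists were therefore compared in full and after they were cut to the same length. A list of equal number held the 80394 autosomal peaks with the highest score, which is the length of the shortest list. The ranking reached down to a score of 204 in untreated KO, 78 in oxLDL KO, 117 in untreated WT and 13 in oxLDL WT. Peaks of X made up 2.33% of all peaks in untreated KO, 2.11% in oxLDL KO, 2.24% in untreated WT and 2.16% in oxLDL WT, and only autosomes were used from here on.

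The labelled cell type was checked on gene starts. In every one of the 4 libraries a peak lay within 1 kb of the start of 22 of the 23 macrophage identity genes (95.7%) that have a start in the reference, out of 32 genes listed. Over all 16457 genes with a start the share was 61.0% in untreated KO, 60.4% in oxLDL KO, 60.9% in untreated WT and 61.9% in oxLDL WT. Ribosomal protein and cell cycle genes had 100% in each library, so a high share is not particular to macrophage genes. The same share was 25% for B cell markers and 21.4% for T and NK cell markers in each library. Neutrophil markers had 38.5% in untreated KO, 30.8% in oxLDL KO, 38.5% in untreated WT and 30.8% in oxLDL WT. Dendritic cell markers had 80% in both KO libraries and in untreated WT, and 50% in oxLDL WT. Erythroid and megakaryocyte markers had 36.4% in untreated KO, 54.5% in oxLDL KO, 45.5% in untreated WT and 54.5% in oxLDL WT. Fibroblast markers had 42.9% in each library, and mast cell and basophil markers had 20% in both KO and 30% in both WT libraries. The lists of these other cell types hold 7 to 14 genes with a start, and their part in the results below was not tested. The start of Smarcd1 itself was called in both KO and both WT libraries, at score percentiles of 67.3 (untreated) and 80.3 (oxLDL) in KO and of 76.1 (untreated) and 83.5 (oxLDL) in WT. The deleted part of the gene is not given in the sources used here, so a peak at this start does not check the genotype.

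KO macrophages had more called accessible sites than WT macrophages in both treatments. Untreated cells had 138132 autosomal peaks in KO and 106477 in WT, a ratio of 1.30. Cells given oxLDL had 93867 in KO and 80394 in WT, a ratio of 1.17. The covered part of the autosomes followed, with 76.1 Mb in untreated KO and 57.2 Mb in untreated WT, and 49.2 Mb in oxLDL KO and 42.1 Mb in oxLDL WT. Over both pairs the mean KO to WT ratio was 1.23 for peak number and 1.25 for covered length (two-sided exact permutation test within treatment, p = 0.5 for each, the smallest that 4 arrangements allow). With 1 library per group, the difference in each treatment has no replicate to set it against.

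**Figure D1:**
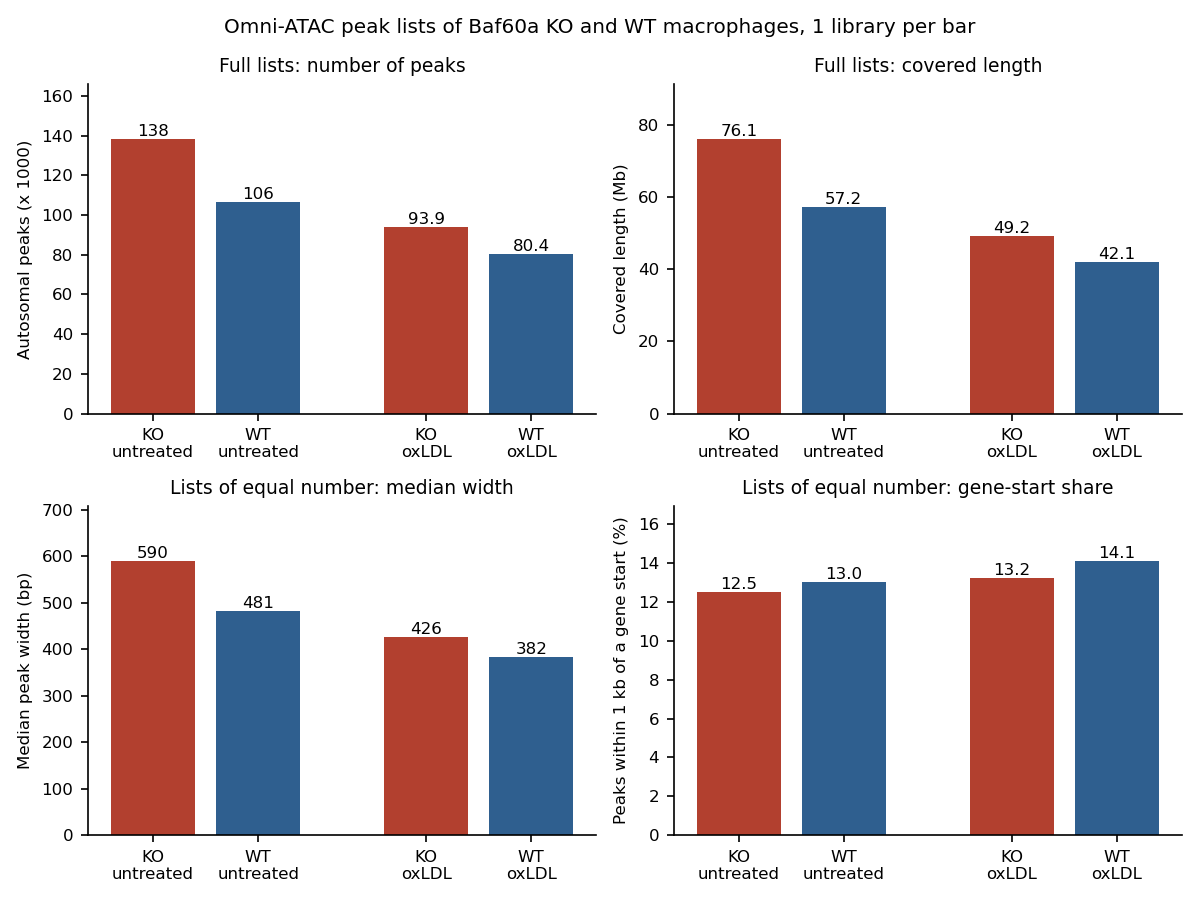
Number of autosomal peaks (in units of 1000), covered length (Mb), median peak width (bp) and share of peaks within 1 kb of a gene start (%) in the 4 Omni-ATAC libraries, 1 bar per library, red for KO and blue for WT. KO bars are the taller of each pair in the first 3 panels, with 590 bp and 481 bp of median width in untreated KO and WT, and the shorter of each pair in the fourth.

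The peaks beyond the equal-number limit, which are the weakest of each list, were narrow and mostly away from gene starts. The 57738 peaks of untreated KO that fell below the equal-number limit had a median width of 269 bp, and 3.81% of them lay within 1 kb of a gene start. The 13473 such peaks of oxLDL KO had 241 bp and 7.51%, and the 26083 of untreated WT had 246 bp and 5.51%. Peaks above the limit were wider in KO. Their median width was 590 bp in untreated KO and 481 bp in untreated WT, and 426 bp in oxLDL KO and 382 bp in oxLDL WT, a mean difference of 76.5 bp (exact permutation p = 0.5, the smallest possible). Wide peaks of at least 2 kb numbered 1161 in untreated KO against 673 in untreated WT, and 485 in oxLDL KO and 356 in oxLDL WT. In the full lists the median widths were close, at 404 bp and 394 bp for untreated KO and WT and at 384 bp and 382 bp for oxLDL KO and WT.

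At equal number, the KO lists held a smaller share of gene starts. Of untreated KO peaks, 12.5% had their centre within 1 kb of the start of a protein-coding gene, against 13.02% of untreated WT peaks. With oxLDL the shares were 13.2% in KO and 14.1% in WT. The mean difference was -0.704 percentage points (exact permutation p = 0.5, the smallest possible), and in full lists it was -2.01 points. The share of peaks more than 50 kb from a start moved the other way, with 33.7% in untreated KO against 32.1% in untreated WT, and 32.0% in oxLDL KO and 31.1% in oxLDL WT. When the lists were instead cut to the same covered length, KO had the larger share, with 18.1% in untreated KO against 16.2% in untreated WT, and 14.5% in oxLDL KO and 14.1% in oxLDL WT. That difference was 1.15 points, so its sign depends on what is held equal. Peak width and gene-start share also followed the length of the full list across all 4 libraries, treatments included, and the part of list length in the genotype difference was not tested.

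The share of accessible regions called in all 4 libraries was 65.4% at equal number and 50.0% in full lists. The equal-number lists merged into 95399 regions, of which 62353 were called in all 4. A further 9291 were called in 3 libraries, 10767 in 2 and 12988 in 1. Both KO libraries and neither WT library called 1434 regions, which is 1.5% of all regions, and these are called KO-pattern regions here. Both WT and neither KO library called 1018, or 1.07%, called WT-pattern regions. In full lists the counts were 4218 KO-pattern regions (2.99% of 141262) and 79 WT-pattern regions (0.0559%). In lists of equal covered length they were 147 KO-pattern and 1530 WT-pattern regions of 81283. Which genotype has more private regions therefore turns on how the lists were made comparable.

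**Figure D2:**
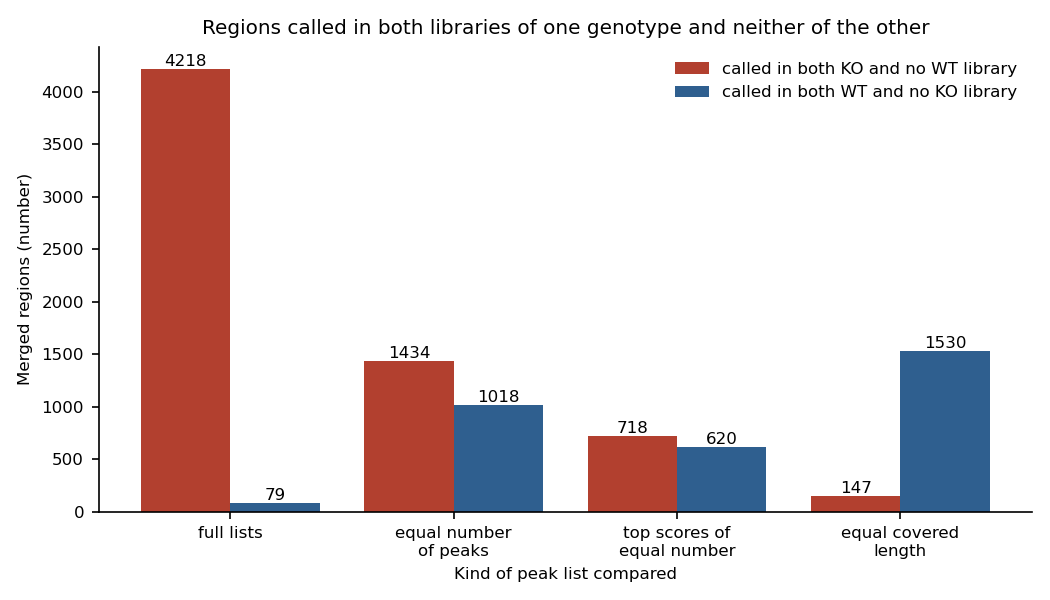
Number of merged regions called in both KO and no WT library (red) and in both WT and no KO library (blue), for full lists, lists of equal number, the 40197 highest-scoring peaks of each and lists of equal covered length. KO-pattern regions outnumber WT-pattern regions in the first 3 kinds of list (718 and 620 among the 40197 highest-scoring peaks), and WT-pattern regions outnumber them in the fourth.

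Regions of either pattern were mostly weak sites near the limit of the lists. In the libraries that called them, the median score percentile of KO-pattern regions was 12.5 in untreated KO and 11.4 in oxLDL KO. For WT-pattern regions it was 10.8 in untreated WT and 13.7 in oxLDL WT. Regions called in all 4 libraries had medians of 60.5 to 61.0 in each library. Of the KO-pattern regions, 1077 (75.1%) had a peak in a full WT list. Of the WT-pattern regions, 1000 (98.2%) had one in a full KO list. Only 1 KO-pattern region and 0 WT-pattern regions lay above the 50th percentile of both equal-number lists that called them.

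KO-pattern regions were mostly distal. Their median distance to a gene start was 40.8 kb, against 21.1 kb for WT-pattern regions, and 25 of 1378 (1.81%) lay within 1 kb of one, against 62 of 987 (6.28%). For regions called in any 2 libraries the values were 32.2 kb and 3.20%, and for regions called in all 4 they were 22.7 kb and 15.4%. More than 50 kb from any gene lay 15.7% of KO-pattern and 6.97% of WT-pattern regions. KO-pattern regions had a median width of 358.5 bp and WT-pattern regions one of 314 bp, both narrower than the 712 bp of regions called in all 4. These are descriptions of regions chosen by their calls and carry no test.

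The KO-pattern regions with the highest score percentiles lay inside genes or between them. Scores are given to show each peak beside the limit of its own list and are not a measure of accessibility across libraries. The region with the highest mean percentile (mm10, chr6:31835858-31836858) lay 214 kb from 1700012A03Rik, with scores of 599 in untreated KO and 326 in oxLDL KO, a score of 39 in the full untreated WT list and no peak in oxLDL WT. A second region on the same chromosome (chr6:31803045-31803586), nearest to Podxl, which encodes the sialomucin podocalyxin, had 429 and 279 in untreated and oxLDL KO and 96 in untreated WT. A region inside Fam83b (chr9:76540029-76541061) had 553 and 206 in untreated and oxLDL KO and 102 in untreated WT. In the full ApoE-null lists this region had a peak in all 4 KO but 2 of the 4 WT libraries. A region near Frem1 (chr4:83061564-83061982) had one there in 3 KO libraries and 1 WT library. A region 178.6 kb from 4930564D02Rik, the nearest gene (chr3:105257000-105257860), had one in 4 KO and 2 WT libraries. The full ApoE-null lists held 33267 to 44524 peaks in KO and 24397 to 39303 in WT libraries. Of the regions shared by all 4 Omni-ATAC libraries, they called 47.6% to 63.3% in KO and 35.5% to 55.7% in WT. The part of list length in such counts was not tested. The region inside Nxpe4 (chr9:48294773-48295184) had 411 and 295 in untreated and oxLDL KO, no peak in either full WT list, and 0 calls in the ApoE-null libraries.

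The WT-pattern regions with the highest score percentiles included a gene start. A region that covers the start of Hyal1, a hyaluronidase gene (chr9:107576785-107577045), had no equal-list call in KO but a score of 170 in the full untreated KO list, against 248 in untreated WT and 187 in oxLDL WT. A region inside Memo1 (chr17:74279875-74280405) had 160 and 44 in the full lists of untreated and oxLDL KO, against 230 and 204 in untreated and oxLDL WT. Those inside Zcchc17 (chr4:130341728-130342060) and Fbrsl1 (chr5:110429108-110429413) also had a peak in the full untreated KO list, at 189 and 200. All 6 of the WT-pattern regions with the highest percentiles had 0 calls in the 4 KO and 0 in the 4 WT ApoE-null libraries.

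Only 5 regions kept their pattern in full lists, in lists of equal number and in lists of equal covered length. The 2 of KO pattern lay inside Hpse2 (chr19:43037155-43037679, scores 504 in untreated and 159 in oxLDL KO), which encodes a heparanase relative, and 96.2 kb from Rad23b (chr4:55253678-55254052, scores 485 and 116), a gene of DNA repair. The 3 of WT pattern lay inside Clip4 (chr17:71834347-71835030, scores 317 in untreated and 176 in oxLDL WT), inside Lclat1 (chr17:73142480-73142881, scores 284 and 59), which encodes a cardiolipin-remodelling acyltransferase, and 1209.62 kb from Ndufa4 (chr6:10690524-10690983, scores 308 and 176). None of the 5 had a peak in a full list of the other genotype. None had a call in any of the 4 KO or 4 WT ApoE-null libraries.

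The patterns were then followed in the 8 ApoE-null libraries, which had no part in choosing the regions. In equal-number lists of 24397 peaks, KO-pattern regions were called at 0.697 ± 0.221% in ApoE-null KO and 0.453 ± 0.334% in ApoE-null WT libraries (SD, n = 4 each), a difference of 0.244 points (exact permutation p = 0.111). WT-pattern regions were called at 1.62 ± 0.990% in ApoE-null KO and 1.52 ± 0.170% in ApoE-null WT libraries (SD, n = 4 each), a difference of 0.0982 points (exact permutation p = 0.889). The KO-pattern share minus the WT-pattern share averaged -0.923 ± 1.15 points in ApoE-null KO and -1.07 ± 0.405 points in ApoE-null WT libraries, and the difference of 0.146 points was within the spread between libraries (two-sided exact permutation test within treatment, p = 0.667, with a smallest possible p of 0.056 over 36 arrangements). The genotype patterns of the Omni-ATAC lists were thus not detectable as a genotype difference in these shorter lists. Regions called in all 4 Omni-ATAC libraries had a peak in at least one full ApoE-null list in 73.3% of cases, against 14.0% for KO-pattern and 24.7% for WT-pattern regions.

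Few gene starts separated the genotypes. Of 16457 protein-coding genes with a start in the reference, 9677 (58.8%) had a peak within 1 kb of it in all 4 equal-number lists and 6012 in none. Both KO and neither WT library called 19 starts, which is 0.115% of all, and both WT and neither KO library called 35, or 0.213%. Per library, untreated KO had 10039 called starts and untreated WT had 10029, while oxLDL KO had 9938 and oxLDL WT had 10187. A full WT list held a peak at 13 of the 19 KO-pattern starts, and a full KO list held one at all 35 WT-pattern starts. In full lists the counts were 62 of KO pattern (0.377%) and 1 of WT pattern (0.00608%).

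The KO-pattern start with the highest mean percentile was that of Cyp1a1, a cytochrome P450 of the aryl hydrocarbon receptor response. It stood at 66.9 in untreated KO and 67.8 in oxLDL KO, with no peak within 1 kb in either full WT list. The 1 KO-pattern region above the 50th percentile of both KO lists lies on chromosome 6. The peaks at Cyp1a1, on chromosome 9, are therefore not a KO-pattern region at these percentiles. WT peaks more than 1 kb from this start were not examined. Next came Cmtm2a, at 44.2 and 25.96 in untreated and oxLDL KO, and Morn4, at 13.4 and 36.5. Btla, an inhibitory receptor of lymphocytes, and Siglecf, a lectin receptor of eosinophils and alveolar macrophages, were also KO-pattern starts with no peak in a full WT list, at percentiles under 20. The WT-pattern starts were led by Hyal1, at 33.9 in untreated WT and 47.2 in oxLDL WT, by the melanocortin receptor gene Mc1r, at 26.6 and 33.8, and by Ly6g5b, at 16.3 and 21.4. Hoxa5, Alpl and Chrna3 followed, and the start of the stem cell factor receptor gene Kit was among them, at 8.81 in untreated WT and 19.5 in oxLDL WT. At Cmtm2a, Hyal1 and Mc1r a full list of the other genotype also held a peak. The reference promoters of the leading 2 starts of each pattern are shown because these starts had the highest mean percentile in the libraries that called them. They run from 250 bases before to 50 after the start, 5′ to 3′ on the gene's strand (RefSeq, GRCm38.p6), and capitals mark the CTCF core match AGGNGGC on either strand.
Cyp1a1, KO pattern, plus strand, chr9:57697363-57697662: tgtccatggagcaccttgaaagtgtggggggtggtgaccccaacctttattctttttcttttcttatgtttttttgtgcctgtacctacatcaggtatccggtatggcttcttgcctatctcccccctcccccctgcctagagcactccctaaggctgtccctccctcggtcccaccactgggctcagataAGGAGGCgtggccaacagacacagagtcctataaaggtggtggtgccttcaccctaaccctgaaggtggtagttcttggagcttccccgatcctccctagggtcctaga
Cmtm2a, KO pattern, minus strand, chr8:104293132-104293431: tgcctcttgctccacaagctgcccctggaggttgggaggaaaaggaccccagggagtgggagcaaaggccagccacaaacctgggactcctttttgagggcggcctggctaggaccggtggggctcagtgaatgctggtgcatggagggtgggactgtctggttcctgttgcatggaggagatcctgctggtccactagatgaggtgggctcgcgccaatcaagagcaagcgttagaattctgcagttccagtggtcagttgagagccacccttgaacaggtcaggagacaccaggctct
Hyal1, WT pattern, plus strand, chr9:107576700-107576999: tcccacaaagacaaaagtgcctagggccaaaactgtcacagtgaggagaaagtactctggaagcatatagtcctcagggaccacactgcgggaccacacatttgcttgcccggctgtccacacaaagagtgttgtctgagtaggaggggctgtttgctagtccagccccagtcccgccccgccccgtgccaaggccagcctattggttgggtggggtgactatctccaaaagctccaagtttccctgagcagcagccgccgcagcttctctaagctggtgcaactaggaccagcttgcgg
Mc1r, WT pattern, plus strand, chr8:123406832-123407131: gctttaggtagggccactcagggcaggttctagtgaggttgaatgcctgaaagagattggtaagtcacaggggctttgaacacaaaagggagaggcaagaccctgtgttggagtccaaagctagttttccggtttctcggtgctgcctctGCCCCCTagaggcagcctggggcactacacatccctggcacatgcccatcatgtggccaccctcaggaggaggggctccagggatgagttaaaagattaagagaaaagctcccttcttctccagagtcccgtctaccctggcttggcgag

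Short motifs were searched on both strands of all 16457 promoters, without regard to overlaps between motifs. The CTCF core AGGNGGC was in 42.1% of the 19 KO-pattern and 31.4% of the 35 WT-pattern promoters, against 45.0% of those called in all 4 libraries and 36.6% of all promoters. The ETS letters CCGGAAG were in 1 of 19 KO-pattern (5.26%) and 0 of 35 WT-pattern promoters, against 20.5% of those called in all 4 and 13.3% of all. The AP-1 letters TGANTCA were in 10.5% of KO-pattern and 8.57% of WT-pattern promoters and in 8.23% of all. The PU.1 letters GAGGAAGT were in 10.5% of KO-pattern and 5.71% of WT-pattern promoters and in 3.71% of all, which is 2 promoters in each pattern. Counts this small describe the promoters and were not tested.

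Accessibility was next summed around each gene, as the base pairs covered by equal-number peaks in the gene with 50 kb on each side, scaled to the same total in all 4 libraries. Of 16584 genes tested with limma over both treatments, 3 passed an adjusted p (Benjamini-Hochberg) of 0.05, which is 0.0181% of those tested. Ppargc1a rose in KO, 1 gene or 0.00603% of those tested, and Gm38510 and Gm7592 fell, 2 genes or 0.0121%. The fit has 1 residual degree of freedom per gene and leans on a spread shared across genes. With 1 library per genotype and treatment, the residual is how far the KO minus WT difference varies between the 2 treatments. The limma p-values therefore do not measure the spread between replicate preparations. At an unadjusted p of 0.05, 594 genes were higher and 996 lower in KO. The median difference over all genes was -0.03 on the log2 scale, 38.3% of genes lay above 0, and 61.7% lay below it. This split depends on the scaling. In lists of equal covered length 8276 genes lay above 0 and 7996 below, with a median of 0.0024, and without scaling to the total 15257 lay above and 1329 below, with a median of 0.13. KO was above WT in both treatments at 3260 genes (19.7%) and below it in both at 6300 (38%).

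**Figure D3:**
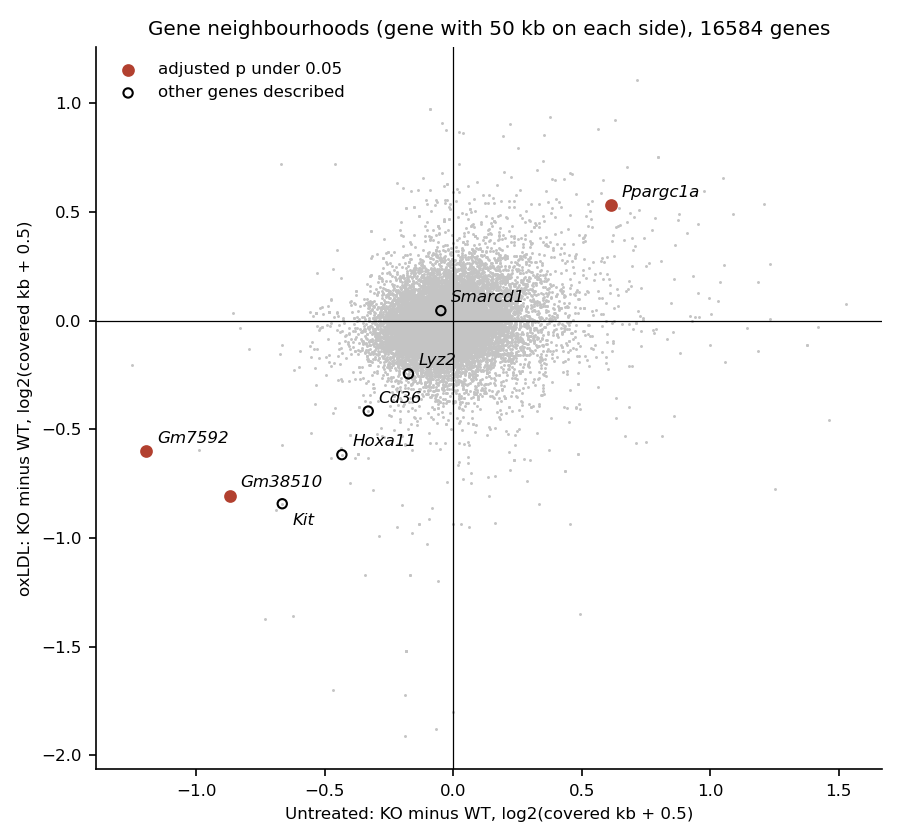
Difference in covered length around each of 16584 genes, KO minus WT, log2(covered kb + 0.5), in untreated cells (x axis) and in cells given oxLDL (y axis), 1 point per gene. Ppargc1a stands high in both treatments, Gm38510 and Gm7592 stand low in both, and Smarcd1 lies near 0. Cd36, Hoxa11 and Kit were picked for the plot after their values were seen.

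Ppargc1a encodes the coactivator that drives mitochondrial biogenesis and oxidative metabolism together with nuclear receptors and NRF1. Its neighbourhood (gene at chr5:51454249-52115853) had 10.9 kb of scaled peak length in untreated KO and 6.95 kb in untreated WT, and 8.26 kb in oxLDL KO and 5.55 kb in oxLDL WT. Both KO libraries were above both WT libraries. The looser condition of KO above WT within each treatment held at 19.7% of all genes tested. It held 20 equal-list peaks in untreated KO against 15 in untreated WT, and 18 in oxLDL KO and 11 in oxLDL WT. The difference was 0.57 on the log2(kb + 0.5) scale (SE 0.0709, limma adjusted p = 0.0233). It was positive under all 13 alternatives tried, from 0.36 to 0.76, and passed in 5 of them. It did not pass with any of 3 single libraries left out, in fits that have no treatment term (untreated KO, oxLDL KO or oxLDL WT), nor with lists of equal covered length (0.36, adjusted p = 0.858) or peak numbers in place of covered length (0.54, adjusted p = 0.467). It also missed the threshold with no filter on low values (limma adjusted p = 0.719), with 10 kb on each side (0.62, limma adjusted p = 0.0806) and without a treatment term (limma adjusted p = 0.9997).

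The Ppargc1a neighbourhood held 21 merged regions. The 4 libraries shared 9 of them, 4 had the KO pattern and 0 the WT pattern. The 1 start in the reference table, which lies inside the annotated gene on the minus strand, was called in no library. The region over the upstream end of the annotated gene (chr5:52115678-52116774, at -548.5 kb from that start) was called in all 4, at score percentiles of 40.1 in KO and 46.6 in WT for untreated cells, and 41.4 in oxLDL KO and 47.5 in oxLDL WT. The KO-pattern region 69.4 kb downstream of the start, inside the gene (chr5:51498106-51498541), had scores of 420 in untreated KO and 193 in oxLDL KO, against 108 in the full untreated WT list and no peak in oxLDL WT. Upstream of that start but still inside the annotated gene, the region at -507.5 kb (chr5:52075046-52075457) had 485 and 193 in untreated and oxLDL KO and 102 in the full untreated WT list. The region at -519.4 kb (chr5:52086780-52087380) had 226 and 134 in untreated and oxLDL KO and no peak in either WT list. At -479.3 kb (chr5:52046622-52047482) a region stood at percentile 69.2 in KO and 42.1 in WT for untreated cells, and at 0.605 in oxLDL KO with no peak in oxLDL WT. Of the regions shared by all 4 libraries, the one 15.1 kb inside the gene stood at percentile 59.1 in KO and 54.1 in WT for untreated cells, and at 21.8 in oxLDL KO and 26.7 in oxLDL WT. The one at 13.8 kb stood at 13.6 and 6.61 in untreated KO and WT, and at 9.12 and 26.7 in oxLDL KO and WT, and the one at 22.2 kb stood at 49.9 and 17.5 in untreated KO and WT, and at 27.7 and 9.37 in oxLDL KO and WT. The place of these 3 was thus higher in KO in untreated cells, and with oxLDL at 1 of the 3. The shared region at -546.1 kb stood lower in KO, at 6.02 against 35.1 in WT for untreated cells. With oxLDL it stood at 17.8 in KO and 31.7 in WT. The shared regions at -551.6 and -574.4 kb stood higher in KO in both treatments. Those at -565.0 and -570.7 kb stood higher in KO in untreated cells and lower in KO with oxLDL.

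The ApoE-null libraries, with no part in this call, had more Ppargc1a signal in KO as well. In their equal-number lists the neighbourhood had 1.98 ± 0.380 kb in ApoE-null KO and 0.863 ± 0.546 kb in ApoE-null WT libraries (SD, n = 4 each). The 4 KO libraries had 1.68 to 2.51 kb and the 4 WT libraries 0.172 to 1.37 kb, so the groups did not overlap. The share of all genes whose ApoE-null groups stand apart in this way was not counted. The mean log2 difference was 0.96 (two-sided exact permutation test within treatment, p = 0.056, the smallest possible over 36 arrangements, and 0.333 adjusted over the 9 genes followed). With full lists the difference was 0.68, and the groups stayed apart, at 2.278 to 3.68 kb in ApoE-null KO and 1.45 to 2.08 kb in ApoE-null WT libraries. In lists of equal covered length, however, the groups overlapped, with 0 to 0.952 kb in ApoE-null KO and 0 to 1.11 kb in ApoE-null WT libraries, and a difference of 0.24 (exact permutation p = 0.5). With peak numbers KO libraries had 5 to 7 and WT libraries 1 to 5 (exact permutation p = 0.111). The KO-pattern region 69.4 kb inside the gene was in all 4 ApoE-null KO and 2 of the 4 ApoE-null WT full lists. The one at -507.5 kb was in 2 KO and 0 WT full lists. Full lists held 33267 to 44524 peaks in ApoE-null KO and 24397 to 39303 in ApoE-null WT libraries. The part of list length in the full-list values was not tested.

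**Figure D4:**
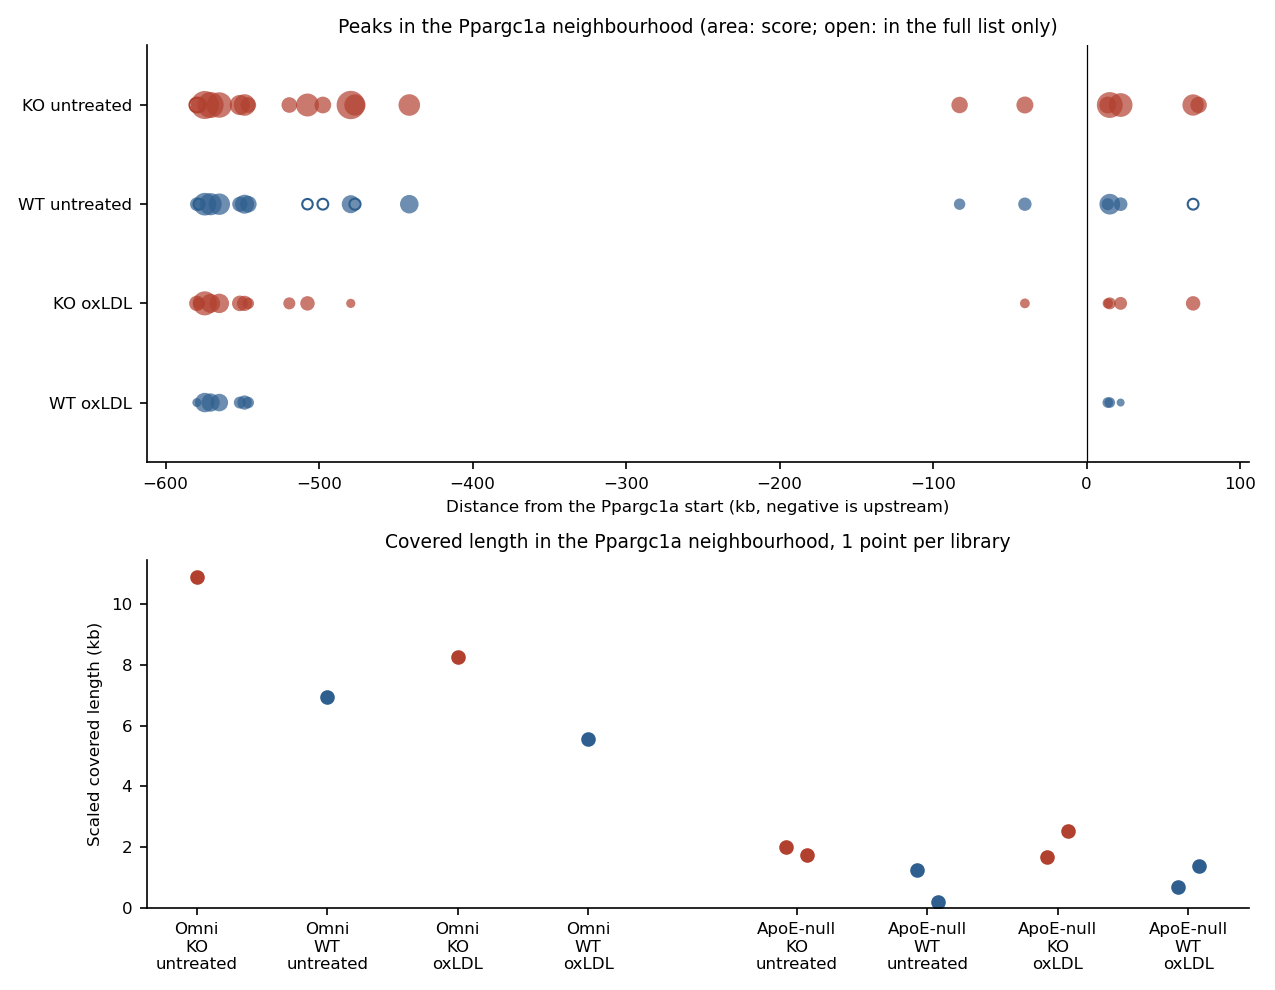
Top, peaks of the 4 Omni-ATAC libraries in the Ppargc1a neighbourhood by distance from its start in the reference table in kb, with marker area in proportion to the score in that library's own list and open markers for peaks of the full list only. Bottom, scaled covered length of the neighbourhood in kb, 1 point per library, where each KO group lies above the WT group beside it in both cohorts.

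The other calls came from 1 locus. Gm38510 (chr1:85155201-85309015) and Gm7592 (chr1:85326832-85555681) are neighbouring predicted genes without a known role, and their neighbourhoods overlap. Gm38510 had 0.754 kb in untreated KO and 1.79 kb in untreated WT, and 7.92 kb in oxLDL KO and 14.2 kb in oxLDL WT, a log2 difference of -0.84 (SE 0.0961, limma adjusted p = 0.0210). Gm7592 had 1.61 kb in untreated KO and 4.32 kb in untreated WT, and 8.88 kb in oxLDL KO and 13.7 kb in oxLDL WT, a log2 difference of -0.90 (SE 0.116, limma adjusted p = 0.0254). At both genes the 2 treatments stood further apart than the 2 genotypes. Peak numbers in full lists did not follow this order in every pair. Gm38510 had 25 full-list peaks in KO and 37 in WT for untreated cells, and 38 in oxLDL KO and 34 in oxLDL WT. Gm7592 had 26 in KO and 27 in WT for untreated cells, and 31 in oxLDL KO and 26 in oxLDL WT. The equal-number cut, which fell at a different score in each list, kept 3 Gm38510 peaks in untreated KO and 5 in untreated WT. With oxLDL it kept 17 in KO and 34 in WT. At Gm7592 it kept 4 in KO and 5 in WT for untreated cells, and 15 in oxLDL KO and 26 in oxLDL WT. Of the 34 merged regions around Gm38510, 0 had the KO or the WT pattern. Of the 27 around Gm7592, 1 had the KO pattern and 0 the WT pattern. With a library left out, the lone library of a genotype is set against both of the other, across treatments. The log2 difference of Gm38510 was then 0.54 without untreated KO and 0.50 without oxLDL WT, and that of Gm7592 was 0.18 without untreated KO, each with the sign turned. In ApoE-null libraries Gm38510 had 20.1 ± 7.75 kb in KO and 22.4 ± 1.70 kb in WT (SD, n = 4 each, exact permutation p = 0.889). The locus is known for near-identical gene copies. How reads were placed among them is not given in the sources used here, so these values are reported as uncertain.

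No gene of the BAF60 family passed the test. Smarcd1 had 7.38 kb in untreated KO and 7.65 kb in untreated WT, and 8.07 kb in oxLDL KO and 7.80 kb in oxLDL WT (log2 difference -0.001, limma adjusted p = 0.998). Smarcd2 differed by 0.01 and Smarcd3 by -0.08 on the log2 scale, neither past the threshold. Of the 28 SWI/SNF subunit genes, 13 lay above 0 and 15 below, with a median of -0.01 and none past the threshold. The highest was Dpf3, a histone reader of some BAF complexes, at 0.21, and the lowest was Actl6a, the actin-like subunit, at -0.19. Within 1 Mb of Smarcd1, 247 regions held 1 of KO pattern and 5 of WT pattern, and within 5 Mb 744 regions held 9 of each, where 1.5% and 1.07% of all regions had these patterns. Nrf1 differed by 0.03 and Apoe by 0.02, and Lyz2, the macrophage lysozyme gene, by -0.21 (limma adjusted p = 0.446), with 4.97 kb in untreated KO and 5.67 kb in untreated WT, and 5.94 kb in oxLDL KO and 7.13 kb in oxLDL WT.

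Genes of macrophage identity mostly lay below 0. Of 32 genes, 28 did so, against 61.7% of all genes, with a median of -0.09 against -0.03, and none passed the threshold. KO was below WT in both treatments at 21 of the 32 genes, against 38% of all genes. Genes of a list that lie close together share peaks, so counts of genes here and in the lists below are not counts of separate observations. The lowest were Laptm5, a lysosomal membrane protein of blood cells, at -0.29 and Lyz2 at -0.21, and the highest was the transcription factor gene Maf at 0.16. The median was -0.10 in full lists and -0.11 in lists of equal covered length, where the medians of all genes were -0.05 and 0.0024. Other lists came close to these values. At equal number the AP-1 and stimulus factors had a median of -0.085, beside -0.086 for macrophage identity. At equal covered length neutrophil markers and fibroblast markers each had -0.11.

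The AP-1 and stimulus factors had 21 of 23 genes below 0, with a median of -0.08 and none past the threshold. Of all genes 61.7% lay below 0, with a median of -0.03. Jun had 5.56 kb in untreated KO and 7.14 kb in untreated WT, and 6.52 kb in oxLDL KO and 7.42 kb in oxLDL WT, a difference of -0.25 (limma adjusted p = 0.374). Junb had -0.24, and Batf2 was the highest at 0.10. In lists of equal covered length the median of the list was -0.01, so its distance from 0 depends on what is held equal. The NRF2 antioxidant genes had 18 of 21 below 0 and a median of -0.07, led by the ferritin genes Ftl1 at -0.23 and Fth1 at -0.21, and their median was also -0.01 at equal covered length.

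Genes of lipid handling lay on both sides of 0. The counts below stand beside 61.7% of all genes below 0 and a median of -0.03. Of 16 genes of modified LDL uptake, 11 were below 0, with a median of -0.07 and none past the threshold. Cd36, the scavenger receptor for oxidised LDL, had 7.53 kb in untreated KO and 9.59 kb in untreated WT, and 11.2 kb in oxLDL KO and 15.1 kb in oxLDL WT, a difference of -0.37 that did not pass (limma adjusted p = 0.0913). In full lists, which are longer in KO, Cd36 had 37 peaks in untreated KO and 34 in untreated WT. With oxLDL it had 34 in KO and 28 in WT. Of the 28 merged regions around Cd36, 13 were shared by all 4 libraries, 2 had the WT pattern and 0 the KO pattern. Lrp1, a large endocytic receptor, had -0.26 (limma adjusted p = 0.101), whereas Megf10 had 0.23. Of 25 genes of cholesterol efflux and LXR, 17 were below 0 with a median of -0.07, from Lipa, the lysosomal acid lipase gene, at -0.17 to Soat1, which esterifies cholesterol, at 0.15. Of 27 PPAR and lipid droplet genes, 19 were below 0 and 1, Ppargc1a, passed. The 22 SREBP and sterol synthesis genes were split, with 12 below 0 and a median of -0.03.

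Inflammatory, mitochondrial and housekeeping lists had medians from -0.07 to -0.04, beside -0.03 for all genes, of which 61.7% lay below 0. The NF-kB list had 22 of 36 genes below 0 and a median of -0.06, from Cxcl3 at -0.27 to Il12a, a cytokine subunit gene, at 0.38 (limma adjusted p = 0.310). The interferon-stimulated list had 20 of 27 below 0 and a median of -0.04. Its lowest members, Sp110 at -0.46 and Sp140 at -0.39, lie beside Gm7592 on chromosome 1 and share peaks with its neighbourhood. Sp110 had -0.80 in untreated cells and -0.13 with oxLDL, and Sp140 had -0.67 and -0.11. The mitochondrial biogenesis list had 18 of 30 below 0 and a median of -0.04, and besides Ppargc1a, which passed, its highest member was Polg, the mitochondrial DNA polymerase gene, at 0.29. Ribosomal protein genes had 24 of 30 below 0 with a median of -0.07, lysosome and autophagy genes 23 of 29 with -0.05, and cell cycle genes 23 of 31 with -0.04. Of 42 genes of neuronal adhesion and guidance, 15 passed the filter on covered length, and 10 of these were above 0, with a median of 0.08, Epha7 at 0.44 and Cntnap2 at 0.31. Of 12 mast cell and basophil markers, 9 passed the filter and 7 of these were above 0, with a median of 0.11. Their highest member was the mast cell chymase gene Cma1 at 0.34, and the lowest was Kit at -0.75 (limma adjusted p = 0.198), with 1.17 kb in untreated KO and 2.14 kb in untreated WT, and 0.644 kb in oxLDL KO and 1.55 kb in oxLDL WT. Kit had 11 full-list peaks in untreated KO and 6 in untreated WT. With oxLDL it had 6 in KO and 4 in WT, in full lists that are longer in KO. Of the 23 lists, 17 had a median below that of all genes.

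**Figure D5:**
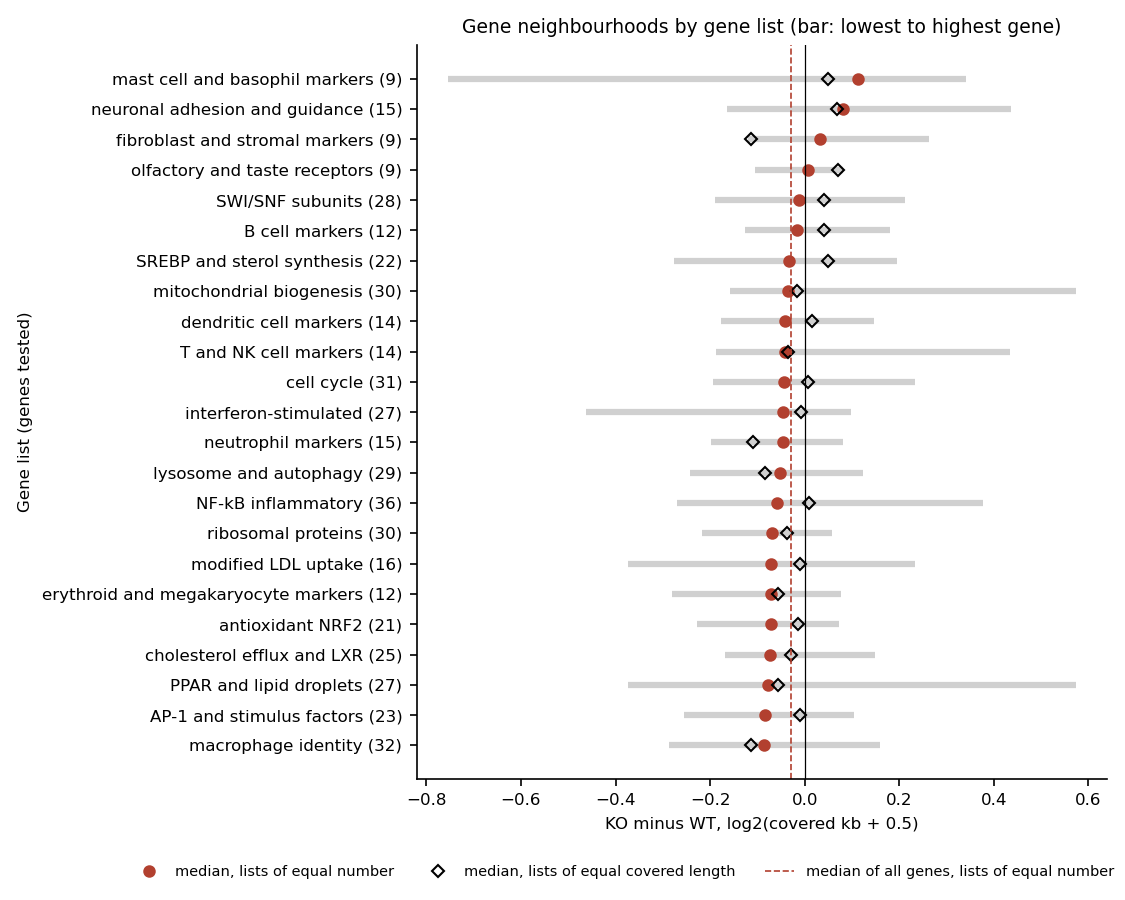
KO minus WT difference in covered length around the genes of 23 lists, log2(covered kb + 0.5), with the number of genes tested in brackets. Bars run from the lowest to the highest gene, red points are medians in lists of equal number, and open diamonds are medians in lists of equal covered length. The dashed line is the median of all genes (-0.03). Macrophage identity has the lowest median in both kinds of list. AP-1 and stimulus factors lie close to it at equal number, and neutrophil and fibroblast markers do so at equal covered length.

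The genes closest to the threshold on either side were named after their values were seen, and none of them passed. The lowest adjusted p among genes with less covered length in KO was shared by 3 neighbours on chromosome 10, Shmt2, Nxph4 and Ndufa4l2, whose neighbourhoods overlap. Shmt2, which encodes a mitochondrial enzyme of one-carbon metabolism, had 6.87 kb in untreated KO and 9.70 kb in untreated WT, and 7.23 kb in oxLDL KO and 9.89 kb in oxLDL WT, a difference of -0.45 (limma adjusted p = 0.0757). Nxph4 had -0.46 and Ndufa4l2 -0.43 at the same adjusted p. Hoxa11, of the Hoxa cluster that patterns the body axis, had 3.91 kb in untreated KO and 5.45 kb in untreated WT, and 3.08 kb in oxLDL KO and 4.99 kb in oxLDL WT, a difference of -0.53 (limma adjusted p = 0.0913). Its neighbours in the cluster share peaks with it and are not separate observations. In full lists, which are longer in KO, Hoxa11 had 17 peaks in untreated KO and 12 in untreated WT. With oxLDL it had 13 in KO and 11 in WT. On the higher side, Rnf182, a ubiquitin ligase gene, had 4.60 kb in untreated KO and 2.09 kb in untreated WT, and 3.44 kb in oxLDL KO and 2.10 kb in oxLDL WT, a difference of 0.79 (limma adjusted p = 0.0757). Ncald, Smoc1 and Arpp21 had 0.49, 0.85 and 0.78 at the same adjusted p. Rnf182 lies in the window chr13:43000001-44000000, which held 5 KO-pattern and 0 WT-pattern regions of 88.

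Of 2106 windows of 1 Mb, 15 held over 3 more KO-pattern than WT-pattern regions and 8 held over 3 more of the reverse. The windows named here were picked by their counts, which are a description beside the 1.5% and 1.07% of all regions with these patterns. The neighbouring chr13:44000001-45000000, with Jarid2, held 5 KO-pattern and 0 WT-pattern regions of 85, and chr13:35000001-36000000 held 5 and 0 of 53. The window chr3:105000001-106000000 held 5 and 0 of 70, and chr15:55000001-56000000, with Sntb1, held 4 and 0 of 48. In the other direction, chr4:137000001-138000000, with Alpl, held 1 KO-pattern and 6 WT-pattern regions of 84, chr6:87000001-88000000 held 0 and 5 of 126, and chr4:140000001-141000000, with the Padi genes, held 0 and 4 of 73.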

How the data were processed

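Processed peak lists of 4 Omni-ATAC libraries, and of 8 ApoE-null libraries for follow-up, were used as deposited, 1 list per library. Per the submitters' processing notes, the tools include MACS3 for Omni-ATAC and MACS2 for ApoE-null lists, Bowtie2 2.3.4.1, SAMtools 1.2, Picard, bedtools 2.28.0 and read trimmers, with build mm10. No parameters, read shift or duplicate filter were given in the sources used here. Each deposited peak carries the authors' score, in whole numbers from 13 upward, which ranks peaks within a list. Depth is unknown, so no counting interval is given.

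Autosomal peaks (19 chromosomes) were ranked by score, and ties were broken in a random order with a fixed seed. Regions were merged at an overlap of 1 bp. Gene positions and 20085 starts of 16457 of the 20665 autosomal protein-coding genes came from RefSeq (GRCm38.p6, the assembly of mm10), with no starts on chromosome 18. Single values were tested by exact permutation of genotype within treatment. Gene neighbourhoods with a mean of at least 1 kb were tested with limma 3.58.1 (R 4.3.3, trended prior, genotype + treatment) on log2(scaled kb + 0.5), with Benjamini-Hochberg adjustment, so fold changes of low genes are understated. Scripts used Python 3.11.15, numpy 2.4.6 and pandas 2.3.3, and the fits were checked on simulated data. Alternatives covered list length, pseudocount, filter, window, scaling and leaving out each library. Lists of equal covered length and the follow-up alternatives for Ppargc1a were added after the data were seen.

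The members, gene lists (536 genes, 524 matched) and tests were chosen with earlier results of these data known. Named genes were the BAF60 family, Lyz2, Apoe and Nrf1, genes past the limma threshold, the 2 highest and 2 lowest members of a list, the 6 regions and up to 8 gene starts of each pattern with the highest mean score percentile, and 8 windows. Of these, the values that carry each comparison are given. Replicates in ApoE-null groups are separate samples per the labels, which do not say that they came from separate animals, so their p-values measure the spread between samples.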

Additional observations from a re-analysis of the deposited data

Results flagged for a closer look

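In the ApoE-null libraries the share of WT-pattern regions called was 0.884 points higher in untreated KO than in untreated WT, with both KO libraries above both WT libraries. With oxLDL the difference was -0.688 points, with both KO libraries below both WT libraries. These are values of equal-number lists, and they rest on 7 to 30 of the 1018 WT-pattern regions per library. Full lists did not keep this order. With oxLDL they called 3.34% and 3.63% in KO and 2.16% and 1.38% in WT libraries. In untreated cells they called 14.1% and 5.30% in KO and 3.44% and 7.17% in WT libraries. The neighbourhood of Smarcd1 had a KO minus WT difference of -0.0483 in untreated cells and 0.0461 with oxLDL, and that of Apoe had 0.0451 in untreated cells and -0.00498 with oxLDL, on the log2(kb + 0.5) scale. Each of the last 2 rests on 1 library per group. These differences between the treatments were not tested.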

How the results depend on the processing

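Peak number, covered length and median width kept their direction under every alternative run for them, and the gene-start share did so except at equal covered length (1.15 points). Counts of regions called in both KO and no WT library were 4218 in full lists, 718 among the upper scores of each list, 357 with the WT lists taken in full, 147 at equal covered length and 3730 to 5206 with each library left out. For both WT and no KO library the counts were 79, 620, 18, 1530 and 2730 to 4255 in the same order. Gene starts of KO pattern numbered 62 in full lists, 3 at equal covered length and 50 to 73 with a library left out, and those of WT pattern 1 in full lists and 83 to 204 with a library left out. A count without a library needs fewer calls, which raises it. The ApoE-null follow-up of the region patterns was -0.420 points in full lists and -0.131 to 0.423 with a library left out, and it was negative without untreated ApoE-null KO replicate 2 (-0.131) or oxLDL ApoE-null WT replicate 1 (-0.0570).

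With the replicate block the follow-up difference was 0.146 points (exact permutation p = 0.75). Correlations of same-numbered ApoE-null libraries were -0.033 to 0.011, so the numbers were not taken to pair samples. The 4 Omni-ATAC libraries have 1 library per group and no replicate numbers to pair.

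Genes past the limma threshold numbered 740 with full lists (341 higher, 399 lower), 848 without scaling to the total (838 higher, 10 lower, with a median of 0.13), 38 at a pseudocount of 2 and 13 without a filter. They numbered 0 with peak numbers, with 10 kb on each side, without a treatment term or at equal covered length, and 0 to 37 with a library left out. Those fits of 3 libraries have no treatment term, since 1 would leave no residual degree of freedom, and the lone library of a genotype is assumed to vary like the others. Gm38510 ranged from -2.21 to 0.54 and Gm7592 from -1.98 to 0.18 with a library left out.

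Among genes that did not pass, signs turned. Smarcd1 had 0.156 without scaling, 0.0508 at equal covered length and -0.0616 to 0.0594 with a library left out. Smarcd2 had -0.132 in full lists and -0.0521 to 0.0736 with a library left out, and Smarcd3 had 0.0337 in full lists and 0.0777 without scaling. Apoe had -0.129 in full lists, -0.159 with peak numbers and -0.0199 at equal covered length and -0.0228 to 0.0629 with a library left out. Nrf1 had -0.0375 with 10 kb, -0.0660 at equal covered length and -0.00928 to 0.0727 with a library left out. The cause was not tested. Depth is unknown, and every value here rests on which peaks the authors' caller kept.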
